A study of Homo sapiens with 4 samples.

Results

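A group of 10 genes that brake or drive entry into the cell cycle was followed in OVCA420 cells exposed to TGF-β1. They are the CDK inhibitors *CDKN1A*, *CDKN1B*, *CDKN1C*, *CDKN2A*, *CDKN2B* and *CDKN2C*, the transcription factor *MYC*, the cyclins *CCND1* and *CCNE1*, and the phosphatase *CDC25A*. They were found by symbol, and all 10 are present among the 33694 genes of each matrix. OVCA420 is an established human epithelial ovarian cancer cell line. Single-cell RNA-seq was performed on untreated cells (Ctrl) and on cells kept in 10 ng/mL TGF-β1 for 1, 3 or 7 days (1-day, 3-day and 7-day), with treatment started at different times so that all cultures were collected together. Each condition was 1 library from 1 cell line, so time of treatment and library cannot be told apart, no test across samples was made, and intervals cover counting error only.

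Passage through G1 into S phase depends on CDK4 and CDK6 with D-type cyclins and on CDK2 with E-type cyclins, which together release E2F factors from the retinoblastoma protein. The INK4 proteins encoded by *CDKN2A*, *CDKN2B* and *CDKN2C* bind CDK4 and CDK6, while the CIP/KIP proteins encoded by *CDKN1A*, *CDKN1B* and *CDKN1C* bind cyclin-CDK complexes, above all those of CDK2. In many normal epithelial cells TGF-β halts growth by raising p15 (*CDKN2B*) and p21 (*CDKN1A*) and by lowering MYC and CDC25A.

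The analysed cells numbered 933 in Ctrl and 937, 705 and 569 in the 1-day, 3-day and 7-day libraries, with 25382817 to 32949874 UMIs per library and a median of 30270 to 43553 UMIs per cell. Gene levels are CPM, counts per 1000000 UMIs of a library after its cells were pooled, and their 95% intervals are exact Poisson intervals. Log2 ratios of these levels have exact conditional 95% intervals. Epithelial carcinoma markers summed to between 3119 and 4540 CPM, although *PAX8* and *MUC16* of that list did not exceed 0.33 and 2.97 CPM in any library. The summed leukocyte markers ranged from 4.43 CPM in Ctrl to 14.1 CPM at 7-day and were carried by *CD68* and *CD79A*, the endothelial and fibroblast ones did not exceed 5.37 and 1.37 CPM, and their part in the levels given here was not tested. *SMAD7*, the inhibitory SMAD and a direct TGF-β target, measured 4.33 CPM in the Ctrl library and 27, 28.5 and 16.9 CPM after 1, 3 and 7 days of TGF-β1.

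The promoters of 4 genes are shown, *CDKN1A* and *CDKN2B*, which were higher at 1-day than in Ctrl, and *CCNE1* and *CDC25A*, which were lower. *CDKN1B* and *CDKN2C* were also 2-fold lower at 1-day, and their windows are not shown. Each is the RefSeq window from 250 bases before to 50 bases after the start on GRCh38.p14, written 5′ to 3′ on the gene's strand. Capitals mark the GC box GGGCGG and the E2F motif (TTTNGCGC or TTTCCCGC), searched on both strands, and neighbouring GC boxes can overlap.
*CDKN1A* (chr6:36678464-36678763, plus strand): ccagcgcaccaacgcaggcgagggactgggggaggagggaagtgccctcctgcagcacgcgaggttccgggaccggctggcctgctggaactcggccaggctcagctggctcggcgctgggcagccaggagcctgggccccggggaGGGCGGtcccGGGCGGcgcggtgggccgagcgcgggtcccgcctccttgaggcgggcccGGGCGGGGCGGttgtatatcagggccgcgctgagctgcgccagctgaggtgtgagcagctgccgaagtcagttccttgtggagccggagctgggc
*CDKN2B* (chr9:22009256-22009555, minus strand): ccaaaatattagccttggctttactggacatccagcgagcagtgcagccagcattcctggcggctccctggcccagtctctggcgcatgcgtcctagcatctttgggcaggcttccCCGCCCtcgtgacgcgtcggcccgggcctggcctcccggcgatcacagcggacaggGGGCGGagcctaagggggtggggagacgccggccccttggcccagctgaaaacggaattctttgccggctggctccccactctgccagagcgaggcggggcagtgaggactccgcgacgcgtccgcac
*CCNE1* (chr19:29811741-29812040, plus strand): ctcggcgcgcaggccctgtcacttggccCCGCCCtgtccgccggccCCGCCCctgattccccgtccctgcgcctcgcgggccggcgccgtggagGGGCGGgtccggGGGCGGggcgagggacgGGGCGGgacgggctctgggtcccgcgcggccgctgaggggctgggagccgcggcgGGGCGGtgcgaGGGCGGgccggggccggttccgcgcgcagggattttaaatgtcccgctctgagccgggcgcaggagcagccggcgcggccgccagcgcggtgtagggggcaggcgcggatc
*CDC25A* (chr3:48188368-48188667, minus strand): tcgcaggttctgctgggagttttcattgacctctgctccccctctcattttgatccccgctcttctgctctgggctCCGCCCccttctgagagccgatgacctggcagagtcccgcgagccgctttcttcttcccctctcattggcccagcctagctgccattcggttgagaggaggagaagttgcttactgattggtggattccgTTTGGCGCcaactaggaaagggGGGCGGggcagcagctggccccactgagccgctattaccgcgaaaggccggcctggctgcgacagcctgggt
The GC box matched 4 times in the *CDKN1A* window, 2 times in that of *CDKN2B*, 7 times in that of *CCNE1* and 2 times in that of *CDC25A*, and 45.0% of 35116 promoter windows of the same length held at least 1. The E2F motif matched 1 time, 44 bases before the *CDC25A* start (offset -44), and 3.37% of all windows held it. The windows of the other 3 genes shown held no E2F match. None of the 4 windows held the SMAD palindrome GTCTAGAC or the E-box CACGTG bound by MYC and MAX, which were found in 0.202% and 7.26% of all windows. The windows of *CDKN1B* and *CDKN2C* held no E2F match. The E-box matched 1 time each in the *CDKN2C* windows that begin at chr1:50960495 and chr1:50969995, and not in that of *CDKN1B*. A match is a run of letters and was not tied to binding here. The table of promoters held 7 of the 10 genes and lacked *CDKN1C*, *MYC* and *CCND1*.

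Cells that cycled were fewest after 1 day of TGF-β1. A phase was assigned to each cell from scores over 46 S genes and 54 G2M genes, neither of which contains any of the 10 genes followed here. S or G2M was called in 82.6% of Ctrl cells (95% exact binomial interval 80.1 to 85.0%), 22.8% of 1-day cells (20.2 to 25.7%), 56.6% of 3-day cells (52.8 to 60.3%) and 66.4% of 7-day cells (62.4 to 70.3%). After each cell had been thinned to the same number of UMIs, the shares were 82.0%, 21.8%, 56.1% and 66.5%. The order of the libraries was therefore the same at equal depth. Phase is a range of a score, and 122 Ctrl, 62 1-day, 54 3-day and 40 7-day cells lay within 0.05 of the limit. In cells called G1 the median S score was -0.08 in Ctrl and -0.16 at 1-day, and the median G2M score was -0.12 and -0.17. Levels of the listed genes were summed over all cells without these calls, although the calls were made from the same genes. At least 2-fold lower levels than in Ctrl were found for 42 of the 46 S genes and 28 of the 54 G2M genes at 1-day, and for 0 of either list at 3-day and 7-day. Over the 12694 genes with a mean of at least 1 CPM, the shares were 10.6%, 8.54% and 7.85% at 1-day, 3-day and 7-day. One G2M gene, *HN1*, named after its values were seen, was higher at 1-day (2623 against 913 CPM), and without it the 1-day share was 21.5%.

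Among the 9 members with a mean of at least 1 CPM, levels at 1-day were at least 2-fold higher than in Ctrl for 2 (*CDKN1A* and *CDKN2B*) and at least 2-fold lower for 4 (*CDKN1B*, *CDKN2C*, *CCNE1* and *CDC25A*). Over the 12694 genes that passed the same filter, 10.2% were 2-fold higher and 10.6% 2-fold lower. At 3-day, 3 members were past the limit upwards (*CDKN1A*, *CDKN2B* and *CCND1*) and 2 downwards (*CDKN1B* and *CDKN2C*), beside 10.9% and 8.54% of all genes. As UMIs per cell without scaling, 5 members were past it upwards at 3-day, with *CDKN2A* (1.25) and *CCNE1* (1.26) added, and 0 downwards, with *CDKN1B* at -0.57 and *CDKN2C* at -0.54. All genes shifted the same way, with 2859 of the 12694 then higher and 544 lower, against 1386 and 1084 with scaling. At 7-day, 4 were past it upwards, with *CCNE1* added at a log2 ratio of 1.00, and 0 downwards, beside 12.9% and 7.85%. The member median was -0.05, 0.75 and 0.30 on the log2 scale, against -0.07, 0.01 and 0.08 over all genes. *CDKN1C* was not among the 9.

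**Figure D1:**
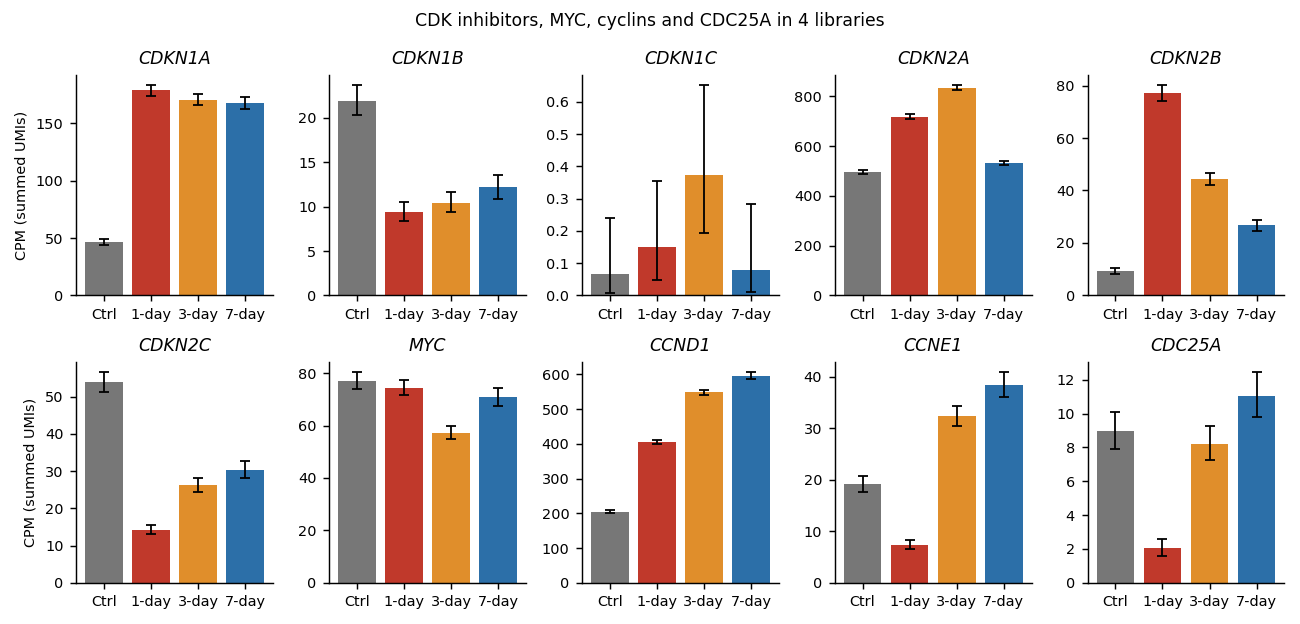
CPM of each of the 10 genes (vertical axis, separate scale for each gene, from 0) in the untreated and the 3 treated libraries, with exact Poisson 95% intervals as error bars. *CDKN1A* is raised by a similar amount in the 3 treated libraries, *CDKN2B* is highest at 1-day, *CCND1* is highest at 7-day, and *CCNE1* and *CDC25A* are lowest at 1-day.

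*CDKN1A*, which encodes p21 and is a target of SMAD factors, stood at 46.4 CPM in Ctrl (95% interval 44.0 to 48.9), 179 CPM at 1-day (174 to 183), then 170 (166 to 175) and 167 CPM (162 to 172) after 3 and 7 days. All 3 treated libraries lay well above Ctrl, and the intervals of neighbouring treated libraries overlapped. The log2 ratios to Ctrl were 1.94, 1.88 and 1.85, so that 96.5% of the 1-day log2 change was present at 3-day and 95.2% at 7-day. Over the same days the share of cells called S or G2M went from 22.8% to 66.4%. Summed over all cells, the CPM of *CDKN1A* thus stayed near its 1-day value while the share of cycling cells was larger by 7-day. In G1 cells alone it was 192 CPM at 1-day and 234 CPM at 7-day, and in S or G2M cells 139 and 134 CPM.

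*CDKN2B*, which encodes p15 and lies beside *CDKN2A* on chromosome 9 (GRCh38 22002903 to 22009305, minus strand), had the largest ratio of the 9 members at 1-day. Its level was 9.37 CPM in Ctrl, 77.1 CPM at 1-day, then 44.5 and 26.7 CPM after 3 and 7 days, and no 2 of the 4 intervals overlapped. The log2 ratios to Ctrl were 3.04 (2.86 to 3.22), 2.25 (2.06 to 2.44) and 1.51 (1.31 to 1.72). At 7-day 49.6% of the 1-day log2 change was left, in contrast to *CDKN1A*. The gene lies within the span of the antisense transcript *CDKN2B-AS1* (21994139 to 22128103, plus strand), which stood between 1.91 and 3.33 CPM in the 4 libraries, and reads of the 2 genes may not be fully separated.

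*CDKN2A* (chromosome 9, 21967752 to 21995301, minus strand) encodes p16 and, in another reading frame, ARF, and these 3′ counts cannot tell the transcripts apart. Its level was 496 CPM in Ctrl, 719 CPM at 1-day, then 835 and 532 CPM after 3 and 7 days. The 4 intervals did not overlap, with the highest level at 3-day and that of 7-day close to Ctrl. The log2 ratios were 0.53, 0.75 and 0.10, none of which reached 2-fold. *CDKN2C*, which encodes p18 and lies on chromosome 1 (50960745 to 50974634, plus strand), had the opposite direction, at 53.8 CPM in Ctrl, 14.3 CPM at 1-day, then 26.2 and 30.4 CPM after 3 and 7 days. No counting intervals overlapped, and its order Ctrl, 7-day, 3-day, 1-day was that of the share of cells called S or G2M. Between cells, however, the variance of its UMIs was 3.95 times the mean at 3-day and 2.97 times at 7-day. The 3-day log2 ratio to Ctrl was -0.83 in the first part of the cells and -1.26 in the second. The order of 3-day and 7-day thus rests on counting error alone. The log2 ratios of *CDKN2C* were -1.91, -1.04 and -0.83. The 3 INK4 genes therefore did not move as a group.

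*CDKN1B* (chromosome 12, 12685498 to 12722369, plus strand), the gene of p27, a protein controlled mostly by its turnover, was lower in each treated library. It stood at 22.0 CPM in Ctrl, 9.38 CPM at 1-day, then 10.5 and 12.2 CPM after 3 and 7 days, with overlapping intervals between 1-day and 3-day and between 3-day and 7-day. The log2 ratios were -1.23, -1.07 and -0.85. *SKP2*, which marks p27 for degradation, was also lower, at 14.8, 3.85, 6.19 and 8.35 CPM. Its cofactor *CKS1B* stood at 293, 140, 307 and 333 CPM, so that it was low at 1-day and back at or above the Ctrl level afterwards. Of the 5 genes of the SCF-SKP2 complex, 2, 1 and 0 were 2-fold lower at 1-day, 3-day and 7-day, beside 10.6%, 8.54% and 7.85% of all genes. *CKS1B* is also in the G2M list. *CDKN1C*, the gene of p57, had 2 UMIs in Ctrl and 5, 12 and 2 in the treated libraries, and the intervals of neighbouring levels overlapped. Its counts were too few at this depth for a change to be read.

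*MYC*, on chromosome 8, which drives growth and ribosome synthesis, stood at 77.1 CPM in Ctrl (74.0 to 80.3), 74.5 CPM at 1-day (71.6 to 77.5), then 57.3 (54.7 to 60.0) and 70.8 CPM (67.6 to 74.1) after 3 and 7 days. The 3-day library was the lowest and did not overlap with the others, and Ctrl and 1-day overlapped. The log2 ratio to Ctrl was -0.05 at 1-day (-0.13 to 0.03), with an interval far short of 2-fold, and -0.43 and -0.12 later. Counted per cell without scaling, there were 2.48 UMIs in Ctrl and 2.62, 2.61 and 3.16 in the treated libraries, so the direction at 1-day, 3-day and 7-day turned with the scaling. In CPM the lowest *MYC* level came at 3-day and not at 1-day, when the share of cycling cells was lowest. Per cell without scaling, Ctrl was the lowest.

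Genes around *MYC* differed in their 1-day level. The partner *MAX* stood at 25.8, 25.8, 26.2 and 29.2 CPM. *MXD1*, which encodes a MAX-binding antagonist of MYC, was at 10.9 CPM in Ctrl and 36.8, 31.5 and 22.9 CPM in the treated libraries, and *MXD3* was at 12.4, 3.95, 7.13 and 9.30 CPM. Of the 8 partners and antagonists tested, 2 were 2-fold higher and 1 was 2-fold lower at 1-day, the former being *MXD1* and, named after its values were seen, *MXD4* (17.3 CPM in Ctrl and 39.6 CPM at 1-day). Over all genes 10.2% were 2-fold higher and 10.6% lower at 1-day. A further list held 22 MYC-regulated genes, mostly of ribosome biogenesis and some of polyamine and nucleotide synthesis, 1 of which is also in the S list. Of these 22, 0 were 2-fold higher and 7 were 2-fold lower at 1-day, with a median log2 ratio of -0.76. At 3-day and 7-day 0 were past the limit, beside 10.9% and 12.9% of all genes higher and 8.54% and 7.85% lower. The range at 1-day ran from -1.69 for *LYAR*, a nucleolar protein gene, to 0.05 for *RRP12*.

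*CCND1* (chromosome 11, 69641156 to 69654474, plus strand), the gene of cyclin D1, was higher at each later time. Its level was 205 CPM in Ctrl, 405 CPM at 1-day, then 548 and 596 CPM after 3 and 7 days, and no intervals overlapped. The log2 ratios were 0.98 (0.94 to 1.03), 1.42 (1.38 to 1.46) and 1.54, and the 1-day value fell just short of 2-fold. With other scalings of the counts the 1-day value was 1.06 and 1.11, past 2-fold. The level was thus already higher when the fewest cells were called S or G2M. *CCND3* was 15.8 CPM in Ctrl and 11.1, 20.1 and 25.1 CPM afterwards, and *CCND2* had 0 UMIs in every library, which, with 3 counts as the limit, allows up to 0.100 CPM in Ctrl and 0.118 CPM at 7-day.

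*CCNE1* (chromosome 19, 29811991 to 29824312, plus strand), the gene of cyclin E1, which partners CDK2 at the start of S phase, was lower than in Ctrl at 1-day and higher later. It stood at 19.1 CPM in Ctrl (17.6 to 20.8), 7.41 CPM at 1-day (6.51 to 8.40), then 32.3 (30.4 to 34.4) and 38.4 CPM (36.0 to 40.9) after 3 and 7 days. The 1-day level lay below Ctrl and both later levels lay above it, without overlap. The log2 ratios were -1.37, 0.76 and 1.00, and the 7-day level was 5.18-fold that of 1-day. The sister gene *CCNE2* was 12.7 CPM in Ctrl and 2.19, 12.6 and 15.4 CPM afterwards.

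*CDC25A* (chromosome 3, 48157146 to 48188417, minus strand), the phosphatase gene whose product removes inhibitory phosphates from CDK2, had the lowest 1-day ratio of the 9 members. It stood at 8.97 CPM in Ctrl, 2.03 CPM at 1-day, then 8.21 and 11.1 CPM after 3 and 7 days, which rested on 269, 67, 264 and 281 UMIs. Only the 1-day interval lay apart from the Ctrl interval. The log2 ratios were -2.14 (-2.55 to -1.75), -0.13 (-0.38 to 0.12) and 0.30 (0.06 to 0.55). *CDC25B* was 35.9 CPM in Ctrl and 17.2, 21.2 and 24.9 CPM afterwards, and *CDC25C* was 4.50, 2.79, 4.95 and 4.85 CPM. *CDC25B*, unlike *CDC25A*, remained below its Ctrl level at 7-day.

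**Figure D2:**
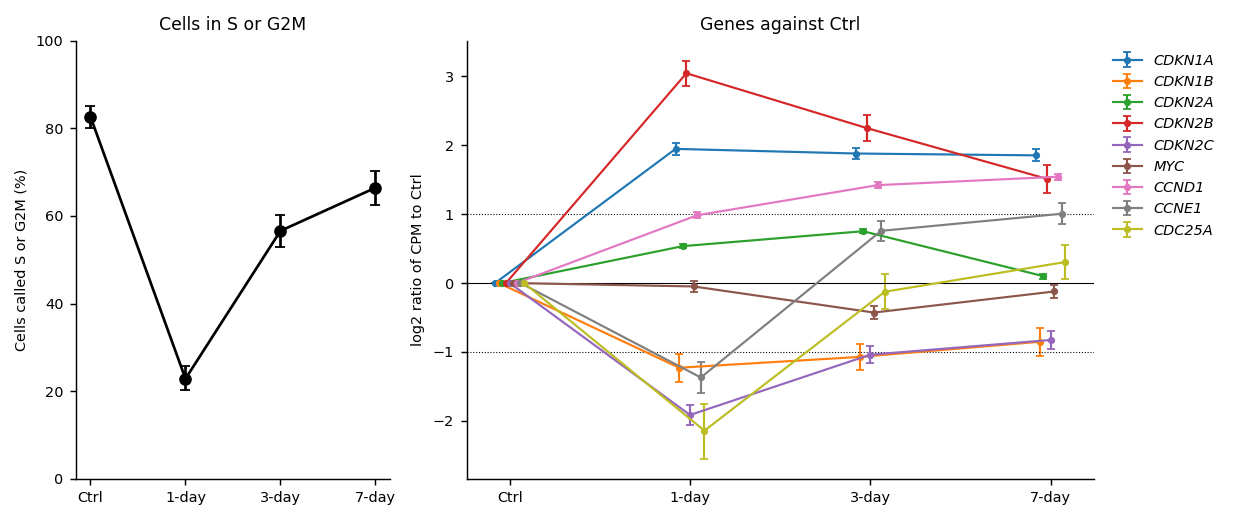
Left, share of cells called S or G2M (%) in each library with exact binomial 95% intervals. Right, log2 ratio of CPM to Ctrl for the 9 genes with a mean of at least 1 CPM, with exact conditional 95% intervals and dotted lines at 2-fold. *CDC25A* and *CCNE1* are lowest at 1-day, at -2.14 and -1.37, and at 0.30 and 1.00 at 7-day, whereas *CDKN1A* lies between 1.85 and 1.94.

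Set against the 1-day drop in cycling, 6 of the 9 members fell into 3 kinds of timing. *CDC25A*, *CCNE1* and *CDKN2C* were lowest at 1-day, the library with the fewest cells called S or G2M. They were higher at 3-day and 7-day, with intervals clear of those at 1-day. *CDKN2B* was highest at 1-day and lower at each later time, in the opposite order to the share of cycling cells among the treated libraries. *CDKN1A* and *CCND1* were raised at 1-day and remained raised at 3-day and 7-day. The other 3 members were placed in none of these. *CDKN2A* was highest at 3-day, *MYC* was lowest at 3-day in CPM but not in UMIs per cell, and *CDKN1B* was low in each treated library. *CDKN1B* had the same order of libraries as *CDKN2C*, with its lowest value at 1-day, but its 1-day and 3-day intervals overlapped. With 4 libraries, no correlation with the share of cycling cells was computed.

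Within phases, the members differed. *CDKN1A* in G1 cells was 80.3 CPM in Ctrl and 192, 202 and 234 CPM at 1-day, 3-day and 7-day, and in cells called S or G2M it was 39.9, 139, 149 and 134 CPM. It was lower in S or G2M cells than in G1 cells of every library, yet the S or G2M cells of each treated library had levels above that of Ctrl G1 cells. The log2 ratio to Ctrl within S or G2M cells was 1.80, 1.90 and 1.75, so the higher level was also present in cells called cycling. *CDKN2B* in G1 cells was 19.9, 86.9, 70.9 and 55.1 CPM, against 7.38, 47.2, 26.1 and 12.6 CPM in S or G2M cells. The gap between these cells and G1 cells of the same library was, on the log2 scale, -1.43 in Ctrl (-1.79 to -1.06) and -0.88 (-1.04 to -0.72), -1.44 (-1.60 to -1.28) and -2.13 (-2.37 to -1.89) after 1, 3 and 7 days. The 7-day gap was the widest, and its interval did not overlap with the others. The return of *CDKN2B* towards Ctrl was accordingly larger in S or G2M cells, whose log2 ratio to Ctrl was 2.68 at 1-day and 0.77 at 7-day, than in G1 cells, at 2.13 and 1.47.

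*CDKN2C* was concentrated in S and G2M cells in every library. In G1 cells it was 10.2, 4.55, 2.58 and 3.21 CPM, and in S or G2M cells 62.1, 44.0, 42.6 and 43.8 CPM. In S and G2M cells pooled it was lower than in Ctrl by log2 ratios of -0.50, -0.55 and -0.50. Taken by phase, the ratios were -0.99, -0.57 and -0.82 in S cells and -0.51, -0.57 and -0.35 in G2M cells. The pooled ratios therefore differed less between the treated times than those within each phase, and the mix of S and G2M cells differed between libraries. *CDKN1B* was also lower in G1 than in G2M cells of each library, at 12.3 against 26.5 CPM in Ctrl and 7.25 against 17.6 CPM at 1-day. *CDKN2A* differed little by phase at 1-day, at 709 CPM in G1 and 749 CPM in S or G2M cells, and more at 7-day, at 436 and 579 CPM. *MYC* in G1 cells was 93.2, 78.1, 61.7 and 77.9 CPM and in G2M cells 68.3, 59.8, 50.5 and 69.0 CPM, and its level in S cells could not be told apart from that in G1 cells at 1-day (77.2 CPM) or 3-day (59.1 CPM).

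**Figure D3:**
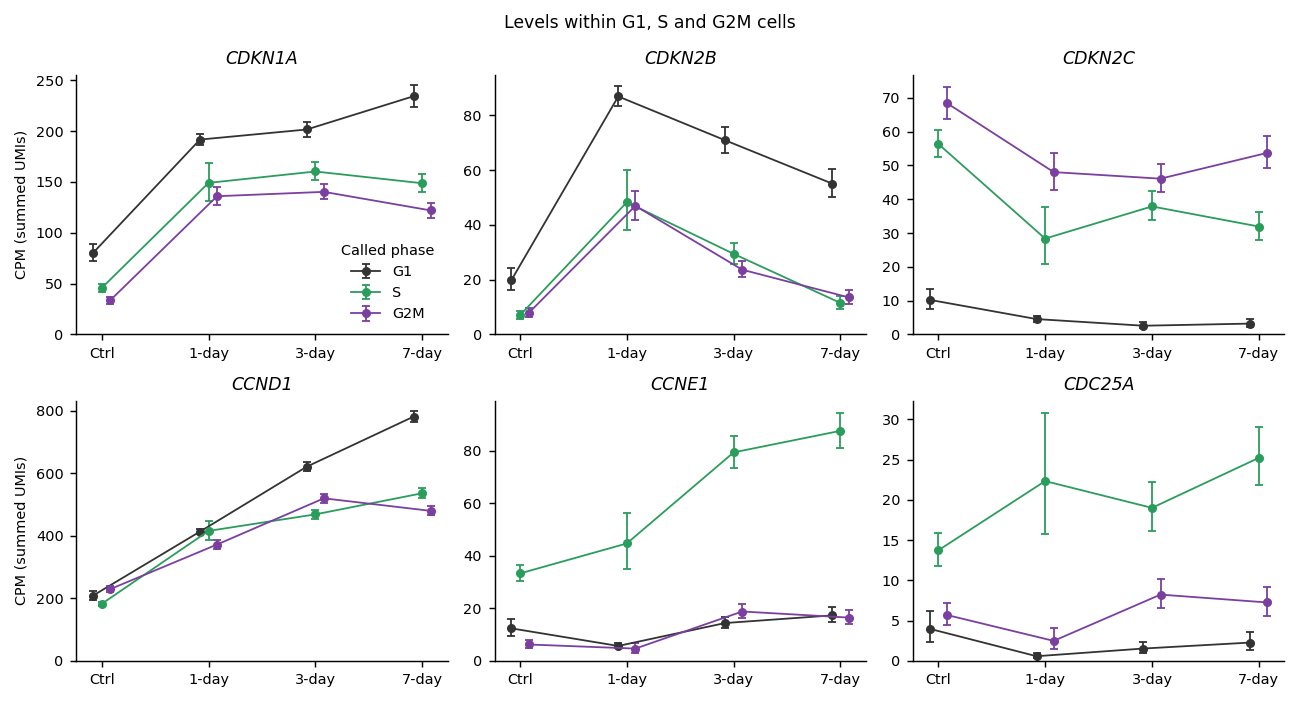
CPM of 6 genes in cells called G1, S or G2M (vertical axis from 0, separate scale for each gene) in the 4 libraries, with exact Poisson 95% intervals. *CCNE1* and *CDC25A* are highest in S cells of every library, including 1-day, where only 47 cells were called S.

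*CCNE1* and *CDC25A* were highest in S cells, a phase called in 417 Ctrl, 47 1-day, 187 3-day and 181 7-day cells. *CCNE1* in S cells was 33.2 CPM in Ctrl, 44.7 CPM at 1-day (35.1 to 56.1), then 79.3 and 87.5 CPM after 3 and 7 days. In G1 cells it was 12.3, 5.64, 14.4 and 17.3 CPM. The few S cells at 1-day thus had no lower level than Ctrl S cells, while G1 cells at 1-day did. Cells called G1 were, however, not alike in these libraries. Within G1 the 1-day log2 ratio was -1.87 (-2.07 to -1.66) for *TOP2A*, a gene of the G2M list that was highest in G2M cells. For *E2F1*, highest in S cells, it was -3.17 (-3.65 to -2.70). The part of this difference in the G1 ratios of *CCNE1*, *CDC25A* and *CDKN2C* was not tested. *CDC25A* in S cells was 13.7, 22.3, 19 and 25.2 CPM, and in G1 cells 3.97, 0.56, 1.52 and 2.26 CPM. The 1-day S cells had a *CDC25A* log2 ratio to Ctrl of 0.70 (0.15 to 1.22), and the 1-day G1 cells one of -2.82 (-3.92 to -1.74). In 1-day G2M cells it was -1.20 (-2.09 to -0.40), and in S and G2M cells together -0.61 (-1.06 to -0.17), beside -0.68 (-0.99 to -0.37) for *CCNE1*. Taken by phase, the 1-day ratio of *CCNE1* was 0.43 (0.05 to 0.78) in S cells and -0.42 (-1.08 to 0.21) in G2M cells. The joint value of *CCNE1* lay below both. The mix of phases differed, with S cells being 47 of 214 at 1-day and 417 of 771 in Ctrl. *CCND1* in G1 cells was 209, 413, 621 and 781 CPM, and in G2M cells 229, 372, 520 and 479 CPM. In each treated library its level in G1 cells exceeded that in G2M cells, unlike in Ctrl.

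When the phases of each library were weighted as in Ctrl, the 1-day log2 ratios of *CCNE1* and *CDC25A* were 0.23 and 0.29, opposite in sign to those over all cells. Those of *CDKN2C* and *CDKN1B* were -0.73 and -0.85, both short of 2-fold. *CDKN1A* and *CDKN2B* kept ratios of 1.70 and 2.52, *CCND1* one of 0.96 and *MYC* one of -0.13. At 7-day the weighted ratios were 1.71 for *CDKN1A*, 1.04 for *CDKN2B*, 1.43 for *CCND1*, 1.33 for *CCNE1* and 0.68 for *CDC25A*. Weighted this way, 2 members were past 2-fold at 1-day instead of 6. The share over all genes was not computed with these weights, so that fall cannot be set apart from one of genes in general. S cells at 1-day carry a large weight here although they numbered 47.

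**Figure D4:**
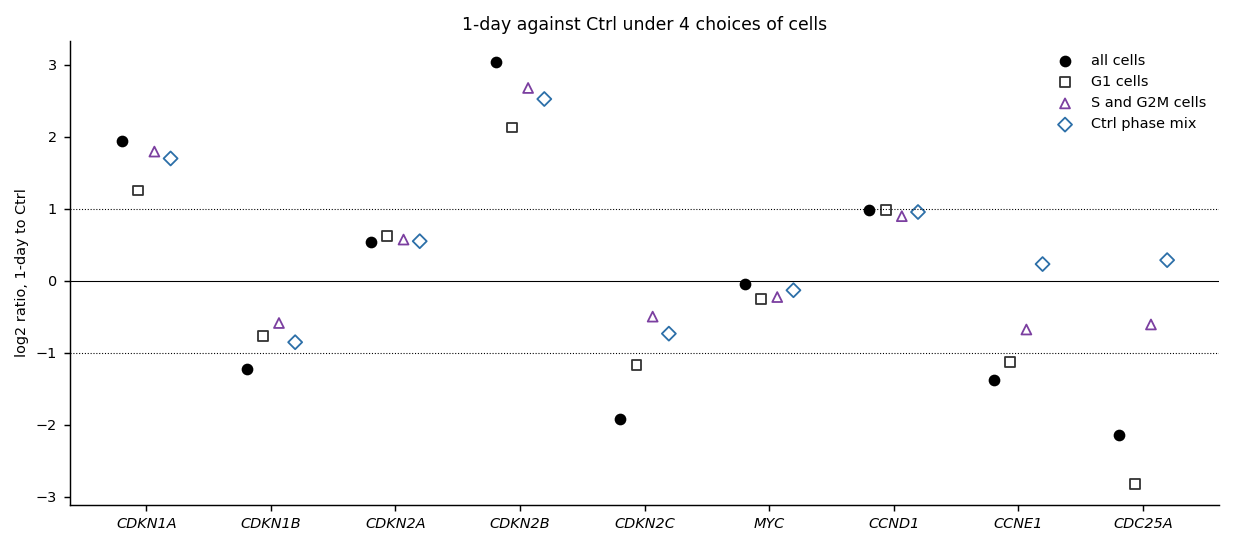
Log2 ratio of 1-day to Ctrl for 9 genes over all cells, over G1 cells, over S and G2M cells, and with the phases weighted as in Ctrl, with dotted lines at 2-fold. *CDKN1A* and *CDKN2B* are above 1 under each choice, whereas *CCNE1* and *CDC25A* lie below 0 in 3 of the 4 choices and above 0 with the Ctrl weights. The S and G2M cells differ in mix, with S cells being 47 of 214 at 1-day and 417 of 771 in Ctrl.

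The share of cells with at least 1 UMI was compared after thinning each cell to the same depth. No cell type that lacks these genes was present, so the share due to free RNA was not measured. *CDKN1A* was detected in 44.0% of Ctrl cells (56.6% before thinning) and in 92.4%, 91.7% and 88.9% of 1-day, 3-day and 7-day cells (97.8%, 97.4% and 96.0%). A majority of Ctrl cells had no UMI of it after thinning, and most treated cells had one. *CDKN2B* was detected in 13.9%, 68.9%, 49.0% and 30.1% of cells (23.3%, 83.2%, 70.4% and 52.2% before thinning), in the order of its CPM. For *CDC25A* the thinned shares were 13.6%, 2.56%, 12.1% and 16.9% (23.8%, 5.87%, 25.8% and 33.0%), and for *CCNE1* 25%, 10.7%, 32.1% and 41.3% (34.5%, 18.1%, 52.1% and 59.2%). *CDKN2A* was detected in at least 99.6% of cells of each library. Spearman correlations between 36 pairs of members over thinned cells of 1 library lay between -0.25 (*CDKN2A* with *CCND1*) and 0.24 (*CDKN1A* with *CCND1*), both over the 549 cells at 7-day, which share 1 library and 1 depth.

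**Figure D5:**
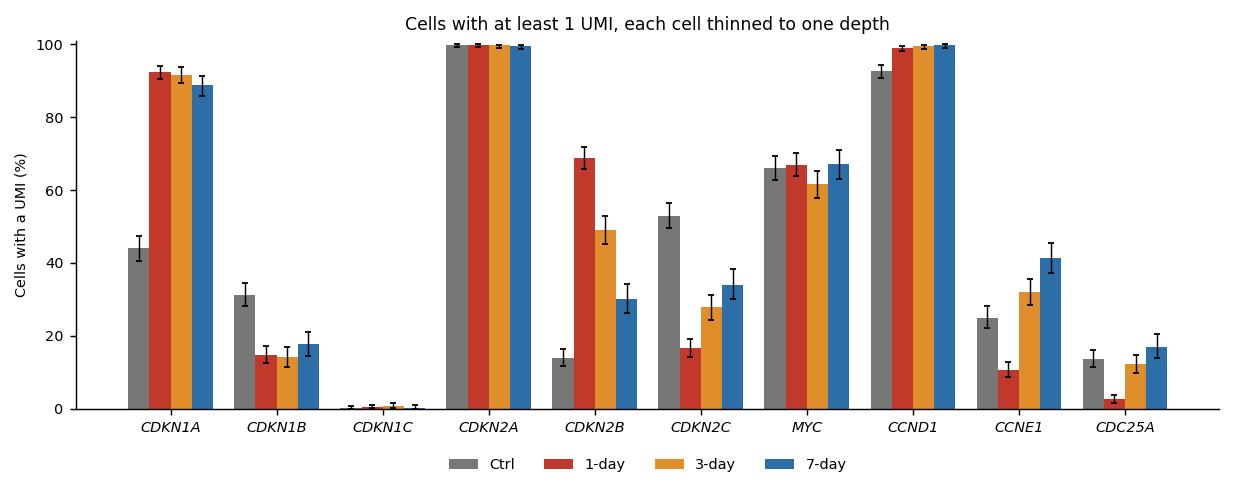
Share of cells (%) with at least 1 UMI of each gene after thinning to the same number of UMIs per cell, by library, with exact binomial 95% intervals. *CDKN1A* is detected in 44.0% of Ctrl cells and in over 88% of cells of each treated library, and *CDKN1C* in under 1% of cells of each library.

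Of the 9 other cyclins and CDKs tested, 5 were 2-fold lower at 1-day, the S phase cyclin *CCNA2*, *CCNE2*, *CDK1*, *CDK2* and *CDK4*, and 0 were past 2-fold in either direction at 3-day or 7-day. Among these genes *CCNE2* is also in the S list, and *CDK1* and *CCNB2* are in the G2M list. Over all genes, 10.6%, 8.54% and 7.85% were 2-fold lower and 10.2%, 10.9% and 12.9% higher at 1-day, 3-day and 7-day. *CDK4*, the target of the INK4 proteins, stood at 237, 105, 185 and 180 CPM, while its relative *CDK6* stood at 179, 223, 283 and 219 CPM. The mitotic cyclins *CCNB1* and *CCNB2* had 1-day log2 ratios of -0.56 and -0.57. Among 6 further CDK brakes and CDC25 phosphatases, 2 were 2-fold lower at 1-day (*CDC25B* and *PKMYT1*, a CDK1 inhibitory kinase, the latter at a log2 ratio of -1.85) and 0 later, and *CDKN2D*, the gene of the INK4 protein p19, was 19.3, 16.0, 23.0 and 29.4 CPM. *CDC25C*, also among the 6, is in the G2M list.

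*RB1*, the retinoblastoma gene, stood at 42.2, 39.2, 42.1 and 47.9 CPM and *RBL2* at 15.8, 16.1, 16.6 and 15.8 CPM, with no 2-fold difference. *RBL1*, the gene of p107, was 13.4, 3.85, 11.0 and 11.3 CPM. *E2F1* was 56.1 CPM in Ctrl and 9.98, 50.9 and 67.6 CPM afterwards, with log2 ratios of -2.49, -0.14 and 0.27. These lie beside -2.14, -0.13 and 0.30 for *CDC25A*, and both sets share the Ctrl library. Of the 13 pocket protein and E2F genes, 4, 1 and 0 were 2-fold lower and 0, 0 and 1 higher at the 3 times. The 4 were *RBL1*, *E2F1*, *E2F2* (-3.79) and, named after its values were seen, *E2F8*, and the 1 higher at 7-day was the repressor *E2F7* (1.35). *E2F8* is also in the S list. Over all genes, 10.6%, 8.54% and 7.85% were 2-fold lower and 10.2%, 10.9% and 12.9% higher. Of 19 E2F-regulated replication genes, 13 of which are also in the S list, 19 were 2-fold lower at 1-day (median -1.97) and 0 at 3-day and 7-day. The 1-day ratios ran from -2.69 for the licensing factor *CDT1* to -1.03 for *TK1*.

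Of 10 transcription factor genes tied to TGF-β control of CDK inhibitors and *MYC*, 2, 2 and 2 were 2-fold higher and 1, 1 and 0 lower. The shares over all genes were 10.2%, 10.9% and 12.9% higher and 10.6%, 8.54% and 7.85% lower. The higher ones were *FOXO1* and *KLF6* at 1-day and 3-day, and *KLF6* and *FOXO4* at 7-day, the latter pair named after their values were seen. The *FOXO4* call rested on 24 UMIs in Ctrl and 67 at 7-day. *FOXO1*, which acts with SMAD factors at *CDKN1A*, was 16.0, 57.3, 36.4 and 26.8 CPM, and *KLF5* was 123, 39.5, 39.9 and 61.5 CPM.

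The genes nearest to a member were those with the smallest value of the largest difference over the 3 log2 ratios to Ctrl, among 5475 genes with a mean of at least 20 CPM. For *CDKN1A* they were *YPEL5*, *BCAR3* and *FERMT1*, with largest differences of 0.04, 0.09 and 0.10. For *CDKN2B* 2 of the 3 are given, *FURIN* and *HMOX1*, at 0.18 and 0.24. The nearest to *CCND1* were *HDAC7*, *CNTNAP2* and *CAMSAP2* (0.08, 0.09 and 0.09), to *MYC* *SUDS3*, *UPF1* and *MT-CO2* (0.08, 0.08 and 0.08), and to *CDKN2A* *NOA1*, *FAM103A1* and *CST3* (0.09, 0.10 and 0.14). The nearest to *CDKN1B* were *EML4*, *PTP4A1* and *ABHD17C* (0.07, 0.12 and 0.12), and to *CDKN2C* *PRRT3-AS1*, *GLA* and *TMEM97* (0.14, 0.19 and 0.24). The pattern of *CCNE1* had no gene as close, with *BTG3*, *ANLN* and *DUSP4* at 0.38, 0.39 and 0.46. *CDC25A* was too low for this search in every library. These likenesses rest on 3 ratios that share the Ctrl library.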

How the data were processed

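Single-cell RNA-seq (10x Genomics 3′ kit v3) was performed by the authors on 4 OVCA420 libraries, 1 per condition. The values the authors deposited are raw UMI counts for each gene in each cell, made with Cell Ranger 2.0.1 on GRCh38 per the labels and the submitters' processing notes. Groups were taken from the treatment labels. Of the 10710 barcodes listed, the first 3170 in the order of the matrices were read, and 3144 with more than 200 genes and at most 20% mitochondrial UMIs were retained, so the sums describe part of each library. Library pairs shared 1 to 7 barcodes. Scrublet (scanpy 1.11.5) marked 40 cells (1.27%) as doublets, which were retained.

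UMIs were summed per library and expressed as CPM. Exact Poisson, conditional and binomial intervals were computed at 95% with scipy 1.17.1 and cover counting error only. Those of UMI counts leave out the spread of counts between cells. A gene was called at 2-fold where its mean over the 4 libraries was at least 1 CPM. Shares of cells were also computed from 18000 UMIs drawn per cell, for which 89, 37, 28 and 20 cells of the 4 libraries were too shallow. Phases were assigned with Seurat 5.3.0 (R 4.3.3) on 16048 genes, each with UMIs in 1% or more of the cells in some library. Gene positions are those of GENCODE release 44. The step that computes ratios was tested on simulated data. With 1 library per condition no p-value was given.

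The members and gene lists were chosen with earlier results of these data known. Genes named in the text are the members, other cyclins and CDKs, fixed regulators of these, the extremes of each further list at 1-day, and for members with at least 20 CPM in a library the 3 genes nearest in pattern, with additions said to be chosen after their values were seen. Some genes this rule names, and 1 further list, are not reported here. Alternatives tried were other scalings, means over cells, thinning, a mitochondrial limit of 10%, doublets left out, single phases, the Ctrl phase mix, parts of the cells, removal of the 10 cells richest in a gene, a fold limit of 1.5 and other filters.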

Additional observations from a re-analysis of the deposited data

Results flagged for a closer look

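*CCNE1* was lower than Ctrl at 1-day (log2 ratio -1.37) and higher at 3-day (0.76) and 7-day (1.00), with each counting interval clear of 0. *CDC25A* was lower than Ctrl at 1-day (-2.14) and higher at 7-day (0.30). Both were noted because the direction against the same Ctrl library turned between time points. With 1 library per time point, that difference could not be tested.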

How the results depend on the processing

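No paired analysis was possible because the groups hold a single library each. Of 351 recomputed log2 ratios of the 10 genes, 224 stayed within the counting interval of the main value and 120 moved outside it. The other 7 changed direction, which was counted only for genes with a mean of at least 1 CPM whose main interval excluded 0. Sign changes of other ratios, such as *MYC* at 1-day, are within the 224 and 120. With the phases weighted as in Ctrl, *CCNE1* and *CDC25A* at 1-day turned to 0.23 and 0.29. As UMIs per cell without scaling, *MYC* turned to 0.076 at 3-day and 0.35 at 7-day. That choice moved the median of all genes by 0.13, 0.50 and 0.47 at 1-day, 3-day and 7-day, and 58.5%, 84.0% and 85.5% of the genes past 2-fold were then higher, against 49.1%, 56.1% and 62.2%. In G1 cells *CDKN2A* and *CDC25A* at 7-day turned to -0.077 and -0.81, and in the second part of the cells *CDC25A* at 7-day was -0.034.

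The count of members past 2-fold at 1-day, 6, was 2 with the Ctrl phase mix and 2 in S and G2M cells alone, a choice made after seeing the data, as was the G2M list without *HN1*. For the Ctrl phase mix and for cells of chosen phases, the share over all genes was not computed. The counts at 3-day and 7-day, 5 and 4, stayed within 1.5 times under every alternative, but not always with the same members. At 3-day, UMIs per cell without scaling gave 5 higher and 0 lower, with *CDKN2A* and *CCNE1* in place of *CDKN1B* and *CDKN2C*. S and G2M cells alone and the Ctrl phase mix each gave 4 higher, *CCNE1* among them, and 0 lower. In G1 cells *CDC25A* took the place of *CDKN1B* at 3-day, and *CDKN2C*, lower, that of *CCNE1* at 7-day. At 7-day 7 alternatives gave 3, 6 with *CCNE1* just short of the limit and 1, S and G2M cells alone, with *CDKN2B* short of it. All genes past 2-fold numbered 2645, 2470 and 2637. They numbered 5016, 4671 and 4798 at a fold limit of 1.5, 8087, 8141 and 8344 without a filter, and 1315, 1105 and 1151 with a mean of at least 10 CPM, where 54.8%, 70.7% and 72.5% were higher. The share of cells with at least 2 UMIs of *TOP2A* or *MKI67* after thinning, in place of a phase call, was 28.1% at 1-day and 51.7% at 3-day, in the same order of libraries. Both genes are in the G2M list, so this share is not independent of the phase calls. Counts of *CDC25A* and *CDKN1C* were the smallest, and their ratios are the least precise.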
